A study of Mus musculus with 6 samples.

Results

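The mitochondrial ribosomal protein genes, which encode the proteins of the ribosome inside mitochondria, were followed in the forebrain of newborn mice with and without deletion of Tsc1. Members were chosen by symbol alone, as every gene named Mrpl or Mrps followed by a number in all 6 tables. This gave 71 of 22651 genes, 42 of them Mrpl genes (large subunit) and 29 Mrps genes (small subunit). The symbols Mrpl11, Mrpl16, Mrpl21, Mrpl43 and Mrpl49 were absent from the deposited data. The counts, sums and ratios given here therefore do not cover the whole family. All 71 passed the filter on low counts, so that each was among the 13969 genes tested. None of the 71 differed between the genotypes after adjustment for multiple tests, and the intervals around most of them were narrow.

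The samples were telencephalon tissue taken at postnatal day 0 from 3 WT and 3 TSC1-KO mice, with 1 RNA-seq library per mouse. The WT mice were TSC1 flox/flox;Emx1 +/+, so they carried the floxed Tsc1 allele without Cre. The TSC1-KO mice were TSC1 flox/flox;Emx1-cre/+, in which Cre is made from the Emx1 locus and the deletion is therefore limited to cells of the dorsal telencephalon and their descendants, while other cells of the dissected tissue keep Tsc1. The comparison asked which transcripts differ when mTOR signaling, which the TSC1 protein restrains, is hyperactive in the developing forebrain.

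Animals make mitochondrial ribosomes from RNAs encoded in mitochondrial DNA and from proteins that are all encoded in the nucleus, translated in the cytosol and imported. The small subunit reads the messenger RNA and the large subunit forms the peptide bonds, and the few products are core subunits of oxidative phosphorylation, on which neurons depend for ATP. Some mitochondrial ribosomal proteins have a counterpart in bacterial ribosomes, while others are found only in mitochondria. The factors NRF1, GABP (of the ETS family) and YY1 are known regulators of nuclear genes for mitochondrial proteins.

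Library totals lay between 14119365 and 17772865 expected counts, so that 3 counts corresponded to 0.169 to 0.212 CPM (counts scaled to library size). Tsc1 was at 50.2, 32.0 and 28.4 TPM (a relative level corrected for transcript length) in the WT mice and at 27.1, 21.7 and 22.4 TPM in the TSC1-KO mice. The groups did not overlap, and the log2 fold change was -0.66 ± 0.18 (SE) with an adjusted p of 0.10 by edgeR's quasi-likelihood test with Benjamini-Hochberg adjustment, and of 0.0031 by DESeq2. Telencephalon markers summed to between 1773 and 2119 TPM in all 6 libraries, and hindbrain and spinal cord markers to at most 0.22 TPM. Of 9 telencephalon markers, Dlx1, Gad1 and Gad2, genes of inhibitory neurons, were called lower in TSC1-KO. Choroid plexus markers summed to 30.2 to 861 TPM in TSC1-KO and 1166 to 2463 TPM in WT, with 6 of 6 lower at an unadjusted p of 0.05, without overlap on CPM, and 0 called. At that unadjusted p, 4 of 7 endothelial and 4 of 5 red blood cell markers were also lower with 0 called. Gfap was called higher, while the other 7 of the 8 astrocyte and radial glia markers had a log2 fold change below 0. Sox2 (progenitors) and Fcrls (microglia) were called lower. In their lists, 6 of 7 progenitor and cell cycle markers and 5 of 8 microglia markers were below 0. TSC1-KO replicate 3 lay nearer the WT libraries than the other TSC1-KO libraries did on the first principal component. The gap between transcript length and effective length, which grows with the length of the sequenced fragments, was 45.8 to 49.7 bases in WT and 55.1 to 57.6 bases in TSC1-KO. The part of these differences in the values of the mitochondrial ribosomal protein genes was not tested, except for length as described further on. In whole tissue, fewer cells of a type and less RNA per cell cannot be told apart.

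The 71 genes lay on 16 chromosomes, with 10 members on chromosome 11, 8 on chromosome 17 and 7 on chromosome 6. RefSeq promoter windows of 300 bases (build GRCm38.p6) matched 62 of the 71 members. Of each window, 250 bases lie upstream of the start and the rest lie downstream, so a match can also fall within the transcript. The core of the NRF1 motif, GCGCATGC on either strand, was present in 8 of the 62 windows (12.9%), against 5.37% of the windows of tested genes. The ETS and GABP letters CCGGAAG were present in 21 windows (33.9% against 16.4%), and the YY1 letters AAGATGGC in 11 windows (17.7% against 4.39%). By subunit, the NRF1 core was present in 7 of 36 Mrpl windows and 1 of 26 Mrps windows, while CCGGAAG was present in 10 and 11. The E-box CACGTG, which MYC family factors can bind, was held by 5 windows (8.07% against 10.03%). The ATF4-type letters TGATGNAA and the CRE letters TGACGTCA were held by 0 of 62 windows, against 2.17% and 3.22% of tested genes. These are matches of letters and not measured binding. The YY1 matches lay outside the longest exon-free upstream stretch of each window. Matches of different motifs shared bases in 0 of the 62 windows, while the NRF1 core is nearly palindromic and can match on both strands at overlapping positions, as in Mrpl9.

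The stretches upstream of 5 members are shown because they carry these matches. Capitals mark a motif match within the stretch, the sequences are written 5′ to 3′ on the strand of the member, and exonic bases were left out. Mrpl10 (chr11:97041408-97041559, plus strand) and Mrpl9 (chr3:94443086-94443317, plus strand) hold the NRF1 core. Mrpl22 (chr11:58171414-58171660, plus strand) holds the NRF1 core and the ETS letters, and Mrps22 (chr9:98601680-98601929, minus strand) and Mrps18c (chr5:100798599-100798626, plus strand) hold the ETS letters. The Mrps18c stretch is the whole gap between this gene and its neighbour Helq.
Mrpl10: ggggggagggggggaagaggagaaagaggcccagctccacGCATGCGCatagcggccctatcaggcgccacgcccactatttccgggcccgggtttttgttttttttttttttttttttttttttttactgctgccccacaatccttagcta
Mrpl9: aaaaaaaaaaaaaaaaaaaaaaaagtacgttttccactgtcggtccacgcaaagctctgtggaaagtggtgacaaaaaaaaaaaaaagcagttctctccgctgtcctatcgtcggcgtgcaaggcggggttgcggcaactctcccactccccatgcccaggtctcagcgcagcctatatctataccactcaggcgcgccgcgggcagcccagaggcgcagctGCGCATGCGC
Mrpl22: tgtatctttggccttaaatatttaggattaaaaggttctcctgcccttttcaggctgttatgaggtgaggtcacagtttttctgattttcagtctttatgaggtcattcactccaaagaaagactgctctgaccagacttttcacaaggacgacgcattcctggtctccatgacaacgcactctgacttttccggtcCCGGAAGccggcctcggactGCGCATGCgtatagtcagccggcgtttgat
Mrps22: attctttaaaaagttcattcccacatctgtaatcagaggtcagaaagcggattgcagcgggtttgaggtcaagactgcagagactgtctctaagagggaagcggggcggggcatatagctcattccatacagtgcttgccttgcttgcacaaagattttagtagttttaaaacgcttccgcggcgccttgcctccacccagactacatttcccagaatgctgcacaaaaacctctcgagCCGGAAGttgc
Mrps18c: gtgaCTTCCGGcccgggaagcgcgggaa

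All 71 genes were expressed, at levels that differed between genes. Mean TPM over the 6 libraries ran from 11.5 for Mrpl17 to 263 for Mrpl20, a span of 22.8-fold, with a median of 57.7, and 55 of the 71 lay between 25 and 100 TPM. A further 10 were above 100 TPM and 6 were below 25 TPM. The highest was Mrpl20, a large subunit protein with a bacterial counterpart, at 246, 273 and 282 TPM in WT and 256, 252 and 267 TPM in TSC1-KO. It held the top rank in every library, and its groups overlapped. Mrpl52 (242 TPM), Mrpl30 (182 TPM), Mrpl12 (147 TPM) and Mrps18c (131 TPM) followed in mean level. Mrpl12 is the stalk protein of the large subunit to which translation factors are recruited, and its levels were 147 ± 3.27 TPM in WT and 147 ± 10.3 TPM in TSC1-KO (SD, n = 3).

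At the lower end, Mrpl17 was at 12.5, 11.9 and 11.2 TPM in WT and 11.2, 11.5 and 11.02 TPM in TSC1-KO, the lowest rank in every library. Mrps14 (16.1 TPM), Mrpl1 (18.1 TPM), Mrpl19 (22.1 TPM) and Mrpl41 (23.3 TPM) came next. Mrpl1 forms the mobile stalk beside the exit site for tRNA, and it was at 18.1 ± 3.41 TPM in WT and 18.2 ± 3.11 TPM in TSC1-KO. This spread (1 SD) included the mean of Mrps14 but not that of Mrpl19. The median TPM was 54.5 for Mrpl genes and 58.9 for Mrps genes. By symbol number, with few exceptions, 43 genes were classed as having a bacterial counterpart and 27 as found only in mitochondria. This rule can misplace single genes. The median was 62.1 TPM for the 43 and 53.5 TPM for the 27. Mrps36 was set aside because its product is now counted as a part of the 2-oxoglutarate dehydrogenase complex.

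**Figure D1:**
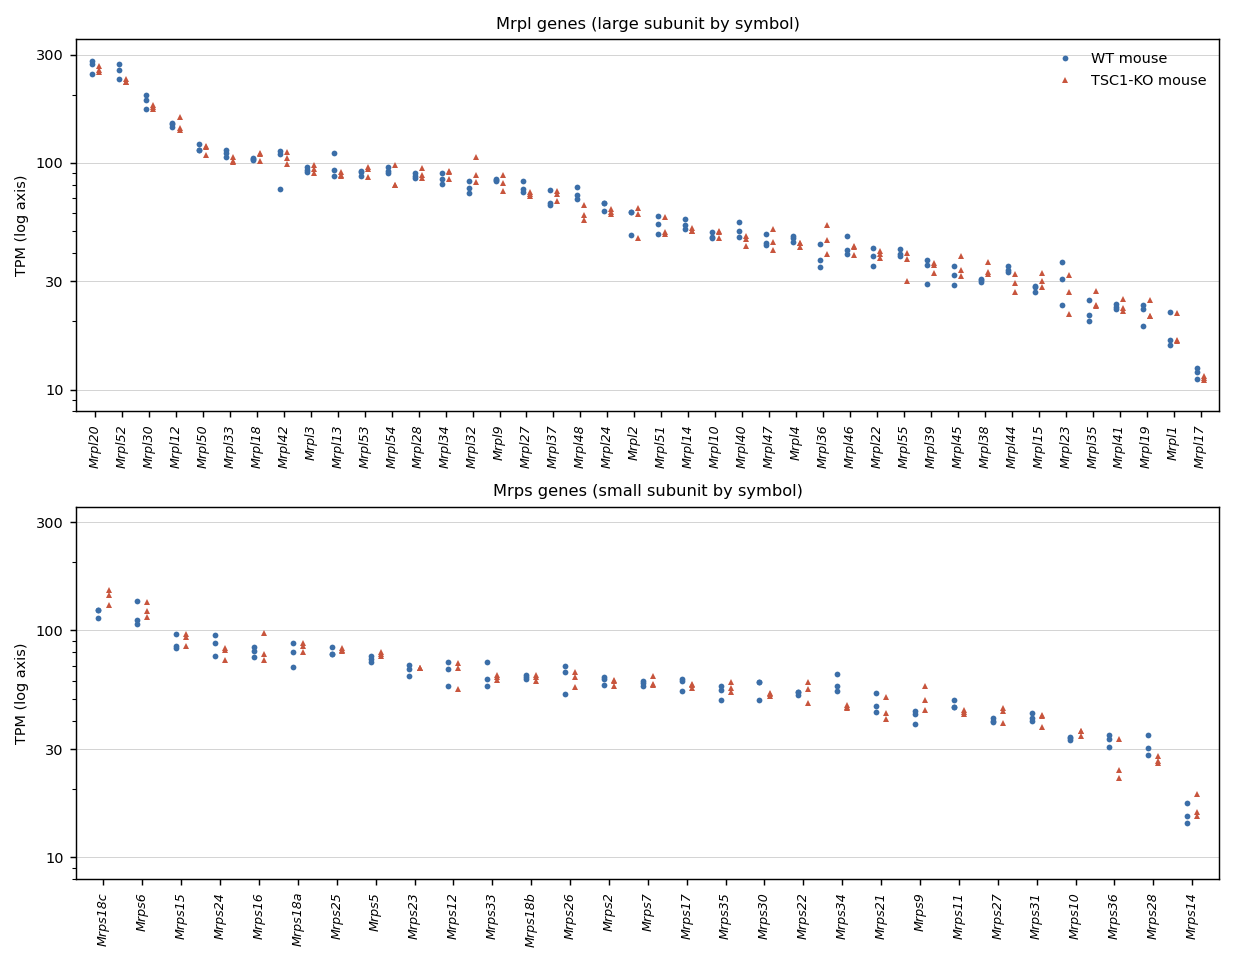
TPM of each of the 71 genes (log axis) in each of the 3 WT mice (circles) and 3 TSC1-KO mice (triangles), for Mrpl genes above and Mrps genes below, ordered by mean level. The means run from 11.5 TPM for Mrpl17 to 263 TPM for Mrpl20, and for most genes the circles and triangles lie in the same range.

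The levels varied little between mice. The median coefficient of variation of a member was 6.06% among the WT mice and 5.39% among the TSC1-KO mice. Mean counts ran from 86 for Mrpl23 to 2783 for Mrps25 with a median of 350, and the lowest count in any library was 58, so no member was near the limit of detection. The rank of a member among the 71 moved by a median of 6 places between its highest and lowest library and by at most 19.

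Between the genotypes, 0 of 71 members passed an adjusted p of 0.05 in edgeR, where 212 of the 13969 genes tested did (1.52%, with 0.859% higher and 0.659% lower in TSC1-KO). At an unadjusted p of 0.05 there were 2 members (2.82%), Mrps34 and Mrpl48, both lower in TSC1-KO, against 18.0% of all genes in either direction and 8.93% lower. DESeq2 also called 0 of 71, against 4.58% of all genes. The median of the absolute log2 fold change was 0.068 for the members and 0.13 for all genes, while the median standard errors were closer, at 0.10 and 0.12.

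The intervals limit how large a difference these data allow. For 63 of the 71 members the 95% interval of the log2 fold change lay within 0.5 of no change, a range of 1.41-fold in either direction, which held for 60.7% of all genes. The other 8 were Mrpl23, Mrpl36, Mrpl48, Mrpl55, Mrps21, Mrps28, Mrps34 and Mrps36. For 0 of 71 did the interval reach a log2 fold change of 1 in either direction, and the outermost interval ends were -0.75 for Mrps36 and 0.53 for Mrpl36. The narrowest interval belonged to Mrps25, from -0.13 to 0.14. In the GENCODE M21 annotation, exons of Nr2c2 on the opposite strand cover 69.8% of its exonic bases. How many reads from Nr2c2 entered the counts of Mrps25 was not tested.

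Of the 71 members, 24 had a log2 fold change above 0 (33.8%, against 49.3% of all genes) and 47 below 0. The median was -0.04, against -0.003 for all genes. This direction depended on the scale, since 35 of 71 were above 0 on log2(TPM + 1), where 55.7% of all genes were, and 43 of 71 when the trend with transcript length was taken out, where 49.2% of all genes were. On CPM, the 3 WT and 3 TSC1-KO libraries did not overlap in 12 members, 10 lower in TSC1-KO (background 11.7%) and 2 higher (background 10.9%). The 10 were Mrps34, Mrpl48, Mrps28, Mrpl44, Mrpl33, Mrpl27, Mrps11, Mrpl14, Mrpl24 and Mrpl17, and the 2 were Mrpl38 and Mrps18c. On TPM the libraries of Mrpl14, Mrpl17 and Mrpl24 overlapped, while those of Mrpl4 (lower), Mrps9 and Mrps10 (higher) did not.

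**Figure D2:**
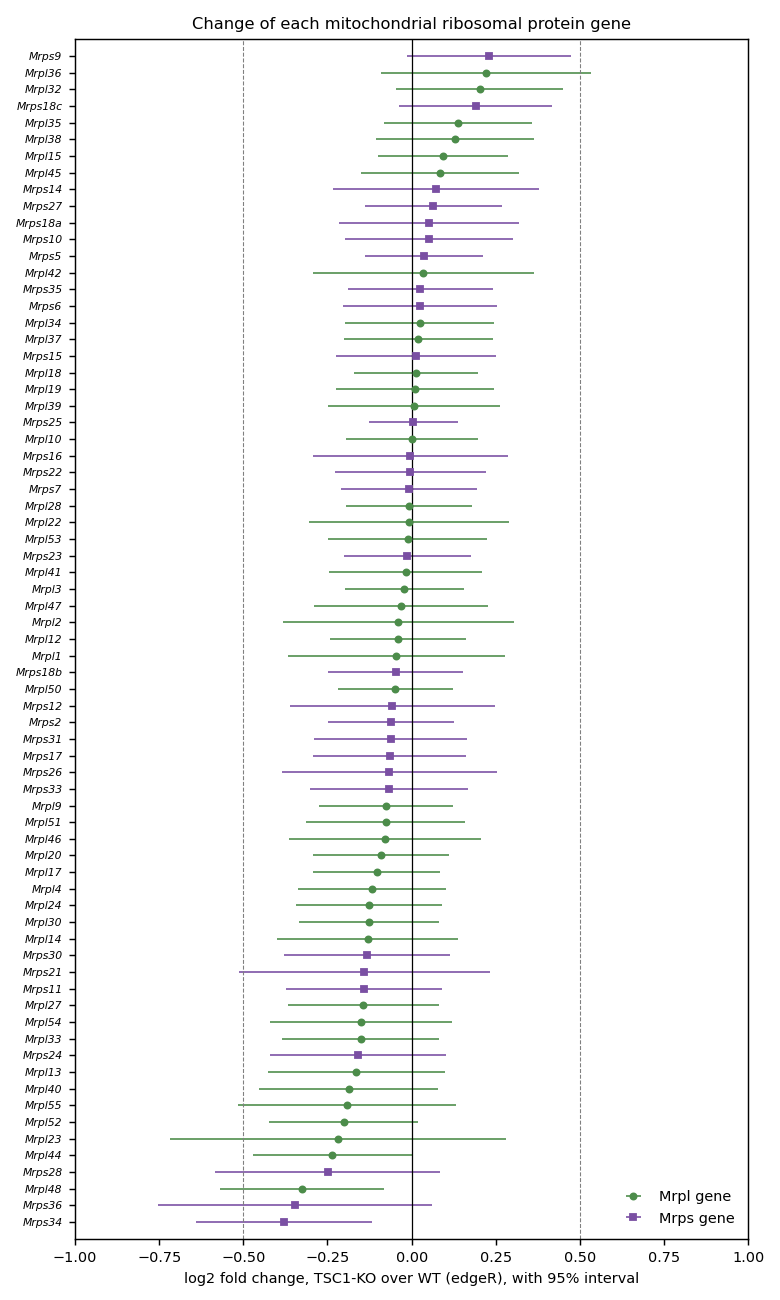
Log2 fold change of TSC1-KO over WT for each of the 71 genes (edgeR, horizontal axis) with its 95% interval, ordered from the lowest at the bottom (Mrps34, -0.38) to the highest at the top (Mrps9, 0.23). Circles are Mrpl genes, squares Mrps genes and dashed lines a log2 fold change of 0.5 in either direction. The intervals of all but Mrps34 and Mrpl48 include 0.

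The lowest log2 fold change was that of Mrps34, a mitochondria-specific protein needed for a stable small subunit (chr17:24895116-24897502). Its normalised CPM, scaled by TMM factors, were 16.2, 20.1 and 18.1 in WT and 13.6, 13.8 and 14.5 in TSC1-KO. All 3 TSC1-KO libraries were below the lowest WT library, and the log2 fold change was -0.38 ± 0.12 (SE), with an edgeR adjusted p of 0.13. In the GENCODE M21 annotation, exons of Mapk8ip3 on the opposite strand cover 63.4% of the exonic bases of Mrps34. The transcript length given with the counts was 898 bases, and the counts of Mrps34 were whole numbers in every library. The library kit does not mark strand, so reads from shared bases cannot be told apart by strand. How many such reads entered the counts was not tested. Mapk8ip3 had a log2 fold change of 0.15 ± 0.07 (SE).

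Mrpl48, a protein of the central protuberance of the large subunit (chr7:100545751-100608301), was at 23.0, 22.8 and 26.1 CPM in WT and at 17.5, 20.9 and 18.9 CPM in TSC1-KO. Again the groups did not overlap, and the log2 fold change was -0.33 ± 0.11 (SE) with an edgeR adjusted p of 0.16. Mrps36 was at 7.20, 8.13 and 8.62 CPM in WT and at 5.61, 7.90 and 5.36 CPM in TSC1-KO. TSC1-KO replicate 2 lay within the WT range. The log2 fold change of Mrps36 was -0.35 ± 0.18 (SE, edgeR adjusted p = 0.35), and it was -0.54 without that replicate.

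Mrps28, a small subunit protein, was at 7.20, 7.02 and 8.76 CPM in WT and at 6.196, 6.279 and 6.79 CPM in TSC1-KO. Mrpl44, which has a fold related to ribonuclease III, was at 17.1 CPM in each of the 3 WT libraries and at 15.6, 14.5 and 13.5 CPM in TSC1-KO. Neither pair of groups overlapped, and the log2 fold changes were -0.25 ± 0.15 and -0.24 ± 0.11 (SE), with edgeR adjusted p of 0.41 and 0.28. Without WT replicate 3 the value of Mrps28 was -0.15. Mrpl23, at the rim of the exit tunnel, had the widest interval of the family, from -0.72 to 0.28, with 58 to 108 counts per library, and its log2 fold change of -0.22 was -0.05 without WT replicate 3.

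At the other end, Mrps9, the counterpart of bacterial S9 (chr1:42851233-42905683), was at 20.8, 22.3 and 19.8 CPM in WT and at 27.3, 24.4 and 22.2 CPM in TSC1-KO. The lowest TSC1-KO library was just under the highest WT library, and the log2 fold change was 0.23 ± 0.11 (SE) with an edgeR adjusted p of 0.30. Mrpl32, a large subunit protein that is matured by the m-AAA protease of the inner membrane, was at 21.2, 20.4 and 19.8 CPM in WT and at 26.7, 21.2 and 22.9 CPM in TSC1-KO. TSC1-KO replicate 2 lay within the WT range, and Mrpl32 had a log2 fold change of 0.20 ± 0.11 (SE) with an edgeR adjusted p of 0.37. Without TSC1-KO replicate 1 the value of Mrpl32 was 0.10 and that of Mrps9 0.15.

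Mrps18c is 1 of 3 members related to bacterial S18. It was at 19.7, 20.5 and 19.3 CPM in WT and at 22.6, 20.8 and 24.6 CPM in TSC1-KO, without overlap, with a log2 fold change of 0.19 ± 0.10 (SE, edgeR adjusted p = 0.36). The values for its relatives were 0.05 ± 0.12 for Mrps18a, which is placed in the large subunit by structure, and -0.05 ± 0.09 for Mrps18b. The remaining members at this end were Mrpl36 (0.22 ± 0.14), Mrpl35 (0.14 ± 0.10) and Mrpl38 (0.13 ± 0.10), none of them called. Without TSC1-KO replicate 2 the value of Mrpl36 was 0.10, and without TSC1-KO replicate 1 that of Mrpl35 was 0.08.

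The log2 fold changes of 7 further members with well known roles follow. In the stalk, Mrpl10, which anchors Mrpl12, was at 27.0, 29.6 and 28.8 CPM in WT and 28.4, 29.6 and 27.5 CPM in TSC1-KO, and its log2 fold change was 0.001 ± 0.09 (SE). That of Mrpl12 was -0.04 ± 0.09. Mrps12, the counterpart of the bacterial decoding protein S12, had -0.06 ± 0.14. Mrpl3, which lies near the peptidyl transferase centre, had -0.02 ± 0.08. Mrpl45, which sits near the exit of the tunnel and contacts the inner membrane, had 0.08 ± 0.10. The WT and TSC1-KO libraries overlapped for all 5 of these genes. Mrps16 (-0.004 ± 0.13) and Mrps22 (-0.004 ± 0.10), both genes in which human mutations cause a defect of mitochondrial translation, differed between the genotypes by less than their standard errors.

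By subunit, the median log2 fold change was -0.04 for the 42 Mrpl genes, with 13 above 0, and -0.01 for the 29 Mrps genes, with 11 above 0. When Mrps30 and Mrps18a were counted with the large subunit, where structures place them, and Mrps36 was left out, the medians were -0.04 and -0.01. The ratio of summed Mrpl to summed Mrps TPM was 1.71, 1.74 and 1.74 in WT and 1.64, 1.67 and 1.73 in TSC1-KO, and these overlapped. Genes classed by symbol number as having a bacterial counterpart had a median of -0.04 (16 of 43 above 0). Those classed as mitochondria-specific had a median of -0.05 (8 of 27 above 0) and included both Mrps34 and Mrpl48.

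Transcript length moved with the fold changes of all genes, and the mitochondrial ribosomal protein genes are short. Their median length was 1029 bases, against 2890 bases for all genes tested. Among the other genes the median log2 fold change was -0.16 below 600 bases (191 genes), -0.13 from 600 to 800, -0.09 from 800 to 1000, -0.07 from 1000 to 1500, -0.03 from 1500 to 2500, 0.01 from 2500 to 5000 and 0.08 from 5000 bases up (2389 genes). The members' medians in the first 5 of these classes were -0.15 (8 genes), -0.08 (14), -0.04 (10), -0.03 (20) and -0.02 (13). The members' medians thus fell in the same order, and each of these 5 lay above that of the other genes of its class. The classes from 2500 bases up held 3 members each, with medians of 0.09 and 0.005.

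The share of members below 0 was closer to that of genes of like length than to that of all genes. Of the 5150 genes between 595 and 2423 bases, the members' 10th to 90th percentile of length, 39.8% were above 0 and the median was -0.05, where the members had 33.8% and -0.04. When each member was set against the tested genes within 10% of its own length (32 to 1834 genes), 43 of 71 lay above the median of those genes, and the median of the differences was 0.03. The members furthest above were Mrps18c (0.33), Mrpl32 (0.32) and Mrpl36 (0.31), and those furthest below were Mrps34 (-0.29), Mrpl48 (-0.22) and Mrps36 (-0.22). The effective lengths given with the counts differed between the genotypes as described above, and using them as offsets in the fit left 28 members above 0, with a median of -0.03.

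**Figure D3:**
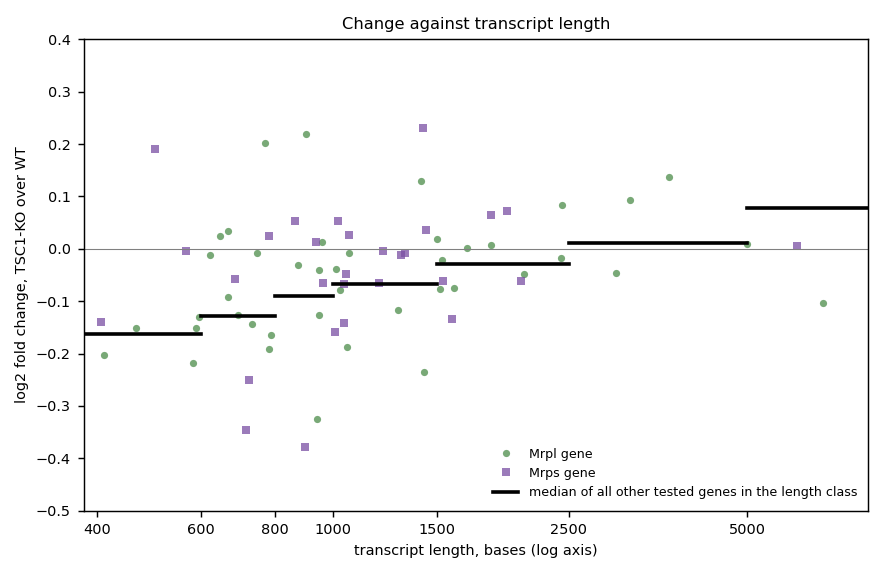
Log2 fold change of TSC1-KO over WT (edgeR) against transcript length in bases (log axis), with circles for Mrpl genes and squares for Mrps genes. Black bars give the median of all other tested genes in each of 7 length classes, rising from -0.16 below 600 bases to 0.08 from 5000 bases up, and the members scatter on both sides of them.

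As a group, the mitochondrial ribosomal protein genes followed here took a similar share of the summed TPM in both genotypes. Their summed TPM was 4781, 4848 and 4940 in WT and 4883, 4745 and 4809 in TSC1-KO. The groups overlapped, at 4856 ± 80.0 and 4812 ± 68.7 TPM (SD, n = 3), a difference of -0.90%. On CPM of the library total, which is not corrected for length, the summed level was 1892, 1947 and 1992 in WT and 1872, 1831 and 1884 in TSC1-KO, a difference of -4.18% without overlap. Summed FPKM, which is scaled to transcript length as TPM is, differed by -4.41% with overlap. The cause of the difference between these measures was not tested. Mrpl genes summed to 3078 ± 60.6 and 3016 ± 44.4 TPM, and Mrps genes to 1779 ± 20.1 and 1796 ± 45.3 TPM, both with overlap. The groups did not overlap for the summed CPM of Mrpl genes (-4.90%) or their median TPM (-4.89%), whereas both measures of Mrps genes overlapped (-3.18% and -1.06%).

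The cytosolic ribosomal protein genes, which encode the ribosome outside mitochondria and whose mRNAs are known targets of translational control by mTOR, were the clearest contrast. Their summed TPM was 34399, 36155 and 37448 in WT and 30060, 29395 and 31353 in TSC1-KO, a difference of -15.9% without overlap. Of the 80 tested, 78 had a log2 fold change below 0, the median was -0.34, and 11 were called lower and 0 higher. That count was 0 without WT replicate 2 or 3 or TSC1-KO replicate 1 or 2, and 33 without WT replicate 1 or TSC1-KO replicate 3, while the median stayed between -0.41 and -0.30. With the trend with length taken out the median was -0.22 and 7 were called. Summed TPM of the mitochondrial ribosomal protein genes as a percentage of that of the cytosolic ones was 13.9%, 13.41% and 13.19% in WT and 16.2%, 16.1% and 15.3% in TSC1-KO. The groups of this ratio did not overlap, as was the case for its denominator but not for its numerator. Whether the 2 gene families differed in their response was not tested.

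Nuclear-encoded subunits of oxidative phosphorylation, the machinery that the products of mitochondrial ribosomes join, lay between these 2 families. Their summed TPM was 22693, 23003 and 23989 in WT and 21498, 22122 and 22827 in TSC1-KO, a difference of -4.65% with overlap. Of 76 tested, 6 were above 0, the median was -0.11, and 1 was called, Cox6a2, an isoform of a cytochrome oxidase subunit known from muscle, which was higher with a log2 fold change of 3.48. Without WT replicate 3 the median was -0.07 with 14 above 0, and with the trend with length taken out it was -0.005 with 37 above 0.

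**Figure D4:**
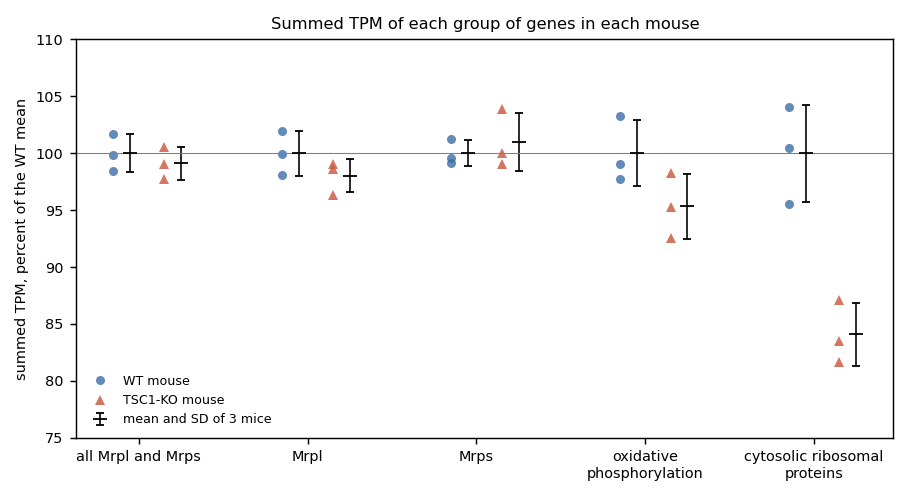
Summed TPM of 5 groups of genes in each mouse, as a percentage of the mean of the 3 WT mice, with WT mice as circles, TSC1-KO mice as triangles, and bars for the mean and SD. The groups of the mitochondrial ribosomal protein genes overlap (a difference of -0.90% for all of them), while the cytosolic ribosomal protein genes lie lower in all 3 TSC1-KO mice (-15.9%). The vertical axis does not start at 0.

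Other genes that build or serve the mitochondrial ribosome were examined as lists, and none of their genes was called with all 6 mice. Of 7 subunit genes that carry other symbols, 2 were above 0, with a median of -0.14. These included Dap3, a GTP-binding protein of the small subunit, at 51.3, 54.0 and 56.0 TPM in WT and 58.0, 54.2 and 56.1 TPM in TSC1-KO (log2 fold change 0.03 ± 0.07, SE). Gadd45gip1, a protein of the large subunit, had -0.17 ± 0.10, and Ptcd3, of the small subunit, -0.14 ± 0.08. Assembly factors had a median of 0.03 with 14 of 26 above 0, a direction that turned with upper-quartile scaling (12 of 26), and leaving out 1 mouse gave medians of 0.003 to 0.04. They ran from Mterfd2 (-0.26 ± 0.11) to Rpusd4 (0.30 ± 0.17), an RNA pseudouridine synthase.

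Translation factors of mitochondria had 11 of 15 above 0 and a median of 0.11, which was 0.03 with 8 above 0 without TSC1-KO replicate 1, 0.06 without WT replicate 2 and 0.17 without TSC1-KO replicate 3. Gfm2, which takes part in ribosome recycling, was at 25.9, 21.97 and 21.2 TPM in WT and at 29.2, 28.7 and 27.8 TPM in TSC1-KO, without overlap, with a log2 fold change of 0.29 ± 0.08 (SE) and an edgeR adjusted p of 0.12. Lrpprc, which stabilises mitochondrial mRNAs, was also without overlap, with 0.17 ± 0.06 and an edgeR adjusted p of 0.19. Tufm, the elongation factor that delivers aminoacyl-tRNA, had -0.22 ± 0.12. Aminoacyl-tRNA synthetases of mitochondria had 12 of 17 above 0 and a median of 0.05 (0.02 without TSC1-KO replicate 1, and 1 gene called without TSC1-KO replicate 3), and the highest of them was Lars2 (0.65 ± 0.23, edgeR adjusted p = 0.18). Import and matrix proteins had 2 of 13 above 0 and a median of -0.10, which was -0.04 without TSC1-KO replicate 1 and -0.02 with the length trend taken out. Without WT replicate 3, 5 of 13 were above 0. Among them were Cs, the citrate synthase, at 0.07 ± 0.06 and Tomm20, an import receptor, at -0.18 ± 0.08.

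The factors named for the promoter motifs also differed little. Nrf1 was at 34.4, 30.5 and 30.5 TPM in WT and at 32.6, 31.4 and 28.2 TPM in TSC1-KO, with a log2 fold change of -0.07 ± 0.09 (SE). Gabpa had -0.08 ± 0.08, Gabpb1 -0.20 ± 0.08, Yy1 0.07 ± 0.07, Myc -0.06 ± 0.10 and Ppargc1a -0.05 ± 0.13. Of these 6, Gabpb1 alone had non-overlapping groups, at 48.7, 43.1 and 45.7 TPM in WT and 38.2, 42.1 and 41.0 TPM in TSC1-KO (edgeR adjusted p = 0.25). Tfam, which packages and transcribes mitochondrial DNA, had -0.11 ± 0.07. Polg, the catalytic subunit of the mitochondrial DNA polymerase, had 0.27 ± 0.09 and its accessory subunit Polg2 -0.49 ± 0.18, with edgeR adjusted p of 0.16 and 0.20.

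Many members share their locus with another gene. For 16 of the 71 members (22.5%), an opposite-strand protein-coding gene started within 1000 bases upstream and ran away from the member. This held for 9.42% of tested protein-coding genes. Pairs that overlap at their starts were not counted. Among these pairs were Mrps12 and Sars2 (172 bases apart), the latter a mitochondrial seryl-tRNA synthetase, Mrpl32 and the proteasome gene Psma2 (75 bases), Mrps18c and the helicase gene Helq (29 bases) and Mrpl10 and Lrrc46 (153 bases). None of the 16 partners was called in edgeR. Psma2 had -0.10 where Mrpl32 had 0.20, Helq -0.13 where Mrps18c had 0.19, and Sars2 -0.06 where Mrps12 had -0.06.

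In the GENCODE M21 annotation, which may differ from the transcripts that were counted, exons of 21 members overlapped those of another gene in the deposited data. The overlap was on the opposite strand in 18. The largest overlap was that of Mrps25 with Nr2c2 (69.8% of the exonic bases), followed by Mrps34 with Mapk8ip3, Mrpl19 with Gcfc2 (36%) and Mrpl24 with Rrnad1 (26.3%). Mrpl46 and Mrps11, a large and a small subunit gene on chromosome 7, overlap each other at their starts by 173 bases. Their log2 fold changes were -0.08 ± 0.13 and -0.14 ± 0.10 (SE). The 50 members without such an overlap had a median of -0.02, with 18 above 0 and 0 at an unadjusted p of 0.05. The 21 with an overlap had a median of -0.08, with 6 above 0, and held both Mrps34 and Mrpl48. Mrps6, which shares its locus with Slc5a3, was the only member with fractional counts.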

How the data were processed

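Total RNA of telencephalon from 6 mice was sequenced as paired-end libraries with a kit that does not mark strand. The authors aligned reads to the mouse genome (mm10) and estimated transcript abundance with RSEM 1.2.12 on RefSeq transcripts, whose release is not given in the sources used here. The deposited tables give 1 row per gene with expected counts, TPM, FPKM, a length and an effective length in bases. The authors' expected counts are not normalized, whereas their TPM and FPKM are scaled to transcript length and library.

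Expected counts were rounded and filtered with edgeR 4.0.16 (filterByExpr), scaled by TMM, and tested in the 6 libraries by the quasi-likelihood test for genotype, with Benjamini-Hochberg adjustment over 13969 genes and a threshold of 0.05. DESeq2 1.42.0 and limma 3.58.1 on log2(TPM + 1), for genes of at least 1 TPM in 3 samples, were alternatives, as were other scalings, filters, offsets for length (a loess trend with a span of 0.3) and leaving out each mouse. The scripts were tested on simulated data. A 95% interval gives the uncertainty of the log2 fold change between the groups and is not a range of single mice. It rests on the spread between mice, with variance information shared across genes. The p-values compare 3 mice with 3.

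The members and all gene lists were chosen with earlier results of these data known. Genes named are the 6 largest rises and falls, the 5 highest and lowest TPM, members with well known roles, and the extremes of each list. Mrpl9, Mrpl22, Mrps25, Mrps6, Mrps11, Mrpl46 and genes sharing a locus were added after their values or sequences were seen. Library totals of 14119365 to 17772865 counts set the precision. The paper used Cre-negative littermates as controls, but the labels do not say which mice shared a litter. Replicate numbers were therefore not taken as pairs, and whether they mark pairs is not known. Gene positions are from GENCODE M21 (GRCm38) and promoter sequences from RefSeq (GRCm38.p6). No 2 libraries of the same genotype agreed within sampling noise.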

Additional observations from a re-analysis of the deposited data

How the results depend on the processing

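In all 18 fits, 0 of 71 members were called, and 1 to 7 were at an unadjusted p of 0.05 (7 without WT replicate 1). Their median log2 fold change was -0.04 and 24 were above 0. With upper-quartile scaling 14 were above 0. With the trend with length as an offset 43 were above 0 and the median was 0.034. Leaving out 1 mouse gave a median of -0.06 to -0.01 (the latter without WT replicate 3), 21 to 30 members above 0, a large minus small subunit difference of -0.056 to 0.0091 (-0.03 with all mice, 0.0091 without TSC1-KO replicate 1), and a change of summed TPM of -1.67% to -0.04%. The summed level changed by -0.90% on TPM, -4.41% on FPKM and -4.18% on CPM. Without replicate 3 of both groups, which expressed the Y-linked gene Ddx3y, 30 were above 0. Of 510 alternative values of the 30 named members, 499 lay within 1 standard error of the value given, none was called, and 47 changed sign, 0 of them among the 12 largest rises and falls.

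With the replicate number as a block, 0 members were called, 24 were above 0 and the median was -0.04. The deviations of same-numbered mice had correlations of 0.27, -0.13 and 0.32, and not every mouse correlated best with its own number. The numbers were not taken as pairs, and whether they mark pairs is not known. The block moved the count of all genes called from 212 to 551. DESeq2 called 640, no filter 346, leaving out 1 mouse 29 to 799, and leaving out replicate 3 of both groups 434. Of the cytosolic ribosomal protein genes, 11 were called, against 36 by DESeq2, 30 by limma on TPM, 32 with the block, 19 with no filter and 7 with the length trend. The cause of these differences was not tested. Members had 58 counts or more in every library, and 4 of the 8 whose intervals reached past 0.5 had mean counts between 86 and 112.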
